A study of Mus musculus with 12 samples.

Results

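The epidermal differentiation complex is a block of mouse chromosome 3 that encodes proteins of the cornified envelope, the cross-linked layer under the membrane of a dying squamous cell. Rows of the deposited count files were taken if their gene name began with Sprr or Lce, or was Lor, Ivl, Flg, Flg2, Rptn, Hrnr, Tchh, Tchhl1, Crnn, Crct1, Kprp or Lelp1. Of 23337 rows 44 matched, and the 40 with at least 10 counts over all 12 libraries were kept. These were 9 Sprr2 genes, 4 other Sprr genes, 18 Lce genes (13 Lce1, 4 Lce3 and Lce6a), 5 fused S100 genes (Rptn, Hrnr, Tchh, Crnn and Flg2), and Lor, Ivl, Crct1 and Kprp. No row named Flg was analysed here. The 4 rows below the minimum were Tchhl1 with 6 counts, Lelp1 with 5, and Sprr2a1 and Sprr2a2 with 0 in every library. All 40 genes lay on chromosome 3 between bases 92080271 and 93449077 (mm10, positions from GENCODE M21), a span of 1369 kb.

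RNA came from the oesophageal epithelium of C57BL/6 mice aged 6 weeks, peeled mechanically from its stroma, and each of 4 genotypes had 3 libraries. Control animals were ROSA26-StopFL-Ikk2ca+/L; Stat3L/L and carried no Cre, so their Ikk2ca allele was silent and their floxed Stat3 intact. The IKKbca group was ED/L2-Cre+; ROSA26-StopFL-Ikk2ca+/L, in which Cre removes the stop and a constitutively active form of IKKβ, the kinase that releases NF-κB, is made. The Stat3KO group was ED/L2-Cre+; Stat3L/L, and compound mutants were ED/L2-Cre+ with both alleles. Cre was driven by ED/L2, an Epstein-Barr virus promoter active in oesophageal squamous epithelium. Cre and the floxed alleles cannot be told apart in comparisons with Control, since only Control lacks Cre. The labels do not say that libraries of a group came from separate animals, so p-values here measure the spread between these libraries, which may be technical.

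As background, a squamous cell leaving the basal layer first lays down a scaffold of envoplakin, periplakin and involucrin, and transglutaminases then cross-link loricrin and the small proline-rich (SPRR) proteins onto it. Late cornified envelope (LCE) proteins are added last, and the fused S100 proteins, long repeat proteins with an S100-type start, fill the cell and bind keratin. The oesophagus of the mouse is keratinised, unlike that of man. SPRR2 proteins, encoded by a run of near copies, are known to be induced in stressed and inflamed epithelia.

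Depth was 14.8 to 30.2 M counts per library. The 40 genes together took 0.319 to 2.51% of a library's counts, and Krt4 and Krt13, keratins of its suprabasal layers, took 4.05 to 13.9%. Both shares were high in the same 6 libraries: Control replicate 3, IKKbca replicates 2 and 3, Stat3KO replicate 3, and replicates 1 and 3 of the compound mutant. There the members took at least 1.36% and the keratin pair at least 10.4%, against at most 0.796% and 6.62% in the other 6. Gastric genes summed to 3582 CPM, the count for each M of TMM-scaled depth, in IKKbca replicate 1 and to 429 CPM in Stat3KO replicate 3, against at most 35.8 CPM elsewhere. Squamous markers were high in every library, with 5 suprabasal genes summing to 36533 to 168218 CPM, although Crnn, one of the markers usually strong in oesophagus, had 0 to 23 counts. Stat3 had 157 to 179 CPM in Control, 158 to 239 in IKKbca, 139 to 154 in Stat3KO and 154 to 194 in compound mutants, and passed no test against Control. Gene counts cannot show whether its floxed exons were missing. Ikbkb, which encodes IKKβ, had 59.7 to 82.6 CPM in Control and 84.6 to 97.7 in IKKbca, a log2 fold change of 0.45 ± 0.14 (SE) that did not pass (edgeR adjusted p = 0.206).

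The data turned on the Sprr2 genes, so the starts of some of them are shown first, beside those of abundant envelope genes that did not pass. Each line gives the 205 bases before the RefSeq start (GRCm38.p6), 5′ to 3′ on the gene's own strand. Capitals mark matches to TGANTCA, the AP-1 motif, and to ATTTGCAT, the octamer bound by POU factors. The windows are chr3:92316500-92316704, plus strand, for Sprr2b, chr3:92338935-92339139, plus strand, for Sprr2d, chr3:92407786-92407990, plus strand, for Sprr2i, chr3:92432377-92432581, plus strand, for Sprr2k, chr3:92458721-92458925, minus strand, for Sprr3, and chr3:92083143-92083347, minus strand, for Lor.
Sprr2b: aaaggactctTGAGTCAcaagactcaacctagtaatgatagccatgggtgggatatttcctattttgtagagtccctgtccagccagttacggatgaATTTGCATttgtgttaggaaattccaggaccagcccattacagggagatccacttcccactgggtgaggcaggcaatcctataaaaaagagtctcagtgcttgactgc
Sprr2d: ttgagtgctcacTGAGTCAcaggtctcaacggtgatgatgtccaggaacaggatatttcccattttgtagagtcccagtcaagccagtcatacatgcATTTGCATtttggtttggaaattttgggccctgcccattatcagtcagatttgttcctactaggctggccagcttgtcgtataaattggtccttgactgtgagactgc
Sprr2i: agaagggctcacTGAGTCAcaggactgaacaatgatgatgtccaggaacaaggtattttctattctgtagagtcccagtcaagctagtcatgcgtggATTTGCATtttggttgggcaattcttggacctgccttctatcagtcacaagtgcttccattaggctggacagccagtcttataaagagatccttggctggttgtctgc
Sprr2k: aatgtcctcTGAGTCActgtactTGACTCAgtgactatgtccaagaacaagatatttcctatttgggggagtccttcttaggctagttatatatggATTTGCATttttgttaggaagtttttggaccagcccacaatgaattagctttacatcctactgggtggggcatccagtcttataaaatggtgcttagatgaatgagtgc
Sprr3: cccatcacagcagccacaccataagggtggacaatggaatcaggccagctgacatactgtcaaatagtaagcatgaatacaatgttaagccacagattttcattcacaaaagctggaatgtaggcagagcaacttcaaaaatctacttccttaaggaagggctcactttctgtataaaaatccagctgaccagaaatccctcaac
Lor: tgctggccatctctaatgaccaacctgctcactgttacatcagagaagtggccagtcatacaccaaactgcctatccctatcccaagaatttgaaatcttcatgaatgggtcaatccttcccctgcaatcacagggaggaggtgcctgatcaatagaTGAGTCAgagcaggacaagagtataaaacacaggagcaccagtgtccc
Sprr2b, Sprr2d and Sprr2i are among the members with large differences between IKKbca and Control described below. Sprr2k is another Sprr2 gene, which differed less. Sprr3 and Lor are the most abundant members.

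Of the 40 members 35 had a promoter entry, 250 bases before to 50 after the start, and both strands were searched. All 7 Sprr2 members with an entry (Sprr2b, Sprr2d, Sprr2e, Sprr2f, Sprr2h, Sprr2i and Sprr2k) held TGAGTCA beginning 193 to 198 bases before the start. The same 7 held ATTTGCAT 108 to 112 bases before it, and none of the other 28 members with an entry did. Among all 32851 promoters of this length, 1.74% held the octamer and 7.81% held TGANTCA. The octamer was added to the search after the sequences had been read. These 7 promoters are near copies, so their matches are not independent observations. Outside Sprr2, TGANTCA was found in Lor, Ivl, Sprr1a, Sprr1b, Crnn, Flg2 and Rptn, and in 0 of 17 Lce promoters. The NF-κB motif searched, GGGA, any base and TTTCC, was in 0 of the 35 and in 0.411% of all promoters. TTCNNNGAA, the STAT motif, was in Sprr2i and Lce1l and in 8.30% of all promoters. A match is a description of letters, and an absent match says only that these letters are not in the window.

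Levels of different genes were compared per length, as CPM per kb of exon, and are shown in the ranked plot of levels. Sprr3, a small proline-rich protein of oral and oesophageal epithelium, stood first with a median of 2344 CPM per kb over the 12 libraries. Lor, which encodes loricrin, the main envelope protein of epidermis, followed at 2073, and Crct1 (cysteine-rich C-terminal 1) at 1017. Sprr1a had 651, Lce3b 565, Lce3c 386 and Rptn 365 CPM per kb. The ranges of neighbours in this order overlapped. Lce1 genes had medians of 9.65 to 71.1, and Sprr2 genes of 0 (Sprr2e) to 11.4 (Sprr2j-ps). Ivl, which encodes involucrin, had only 1.87 CPM per kb and Flg2 0.0172.

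**Figure D1:**
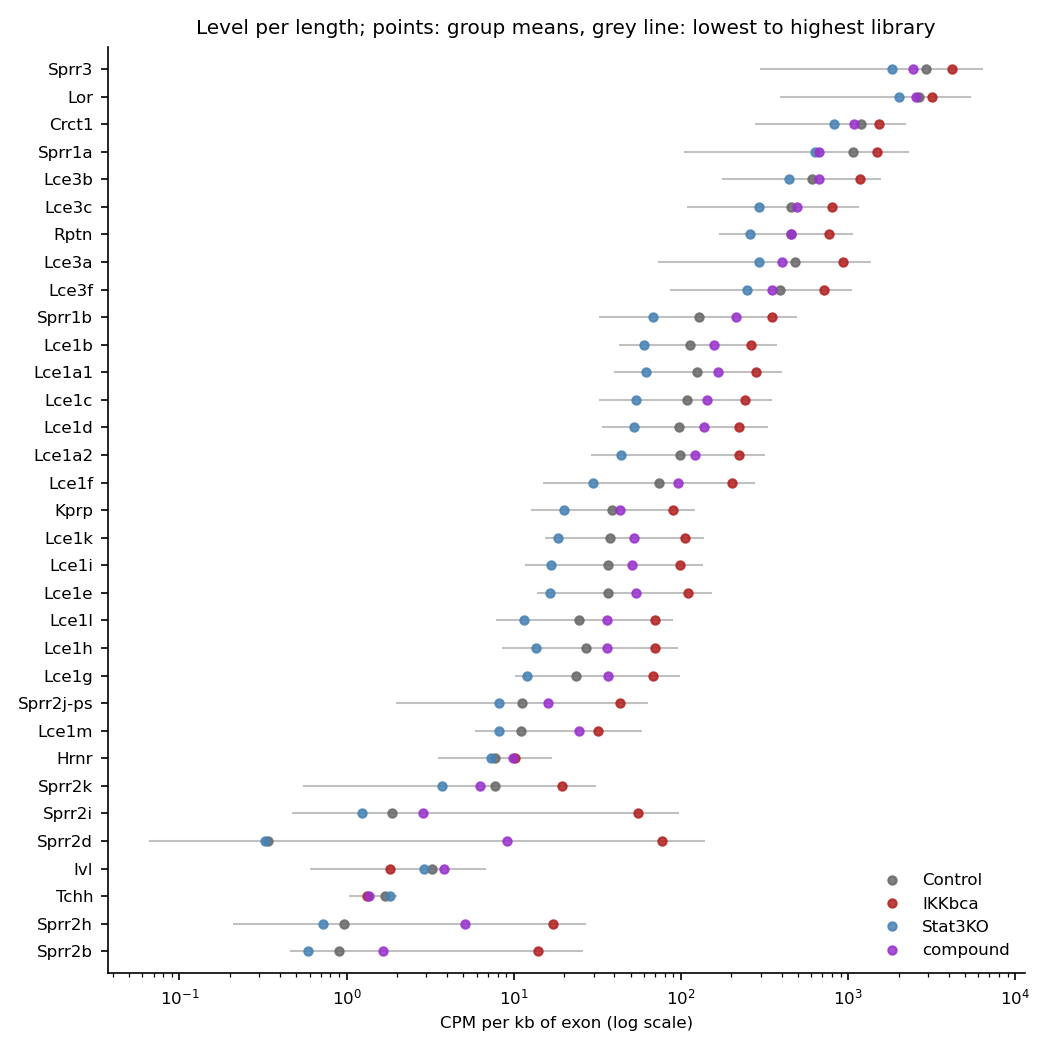
Level per length of the 33 members with a median above 1 CPM per kb of exon, on a log axis; points are group means of 3 libraries and grey lines run from the lowest to the highest library. Sprr3 and Lor lead. The grey line of Sprr2d is the longest, with its highest library 2093-fold above its lowest, which had 1 count.

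The members also differed in how much they varied. Sprr2d varied most among the members counted in every library, 2093-fold from lowest to highest, and Tchh (trichohyalin, best known from hair follicle) least, at 1.93-fold. The lowest Sprr2d library, Stat3KO replicate 1, had 1 count, so the 2093-fold is imprecise. Within Control alone the highest library was 5.58-fold above the lowest for Sprr3, 4.27-fold for Lor and 4.66-fold for Lce3b. In a bulk sample, fewer cells of a type and less RNA per cell cannot be told apart.

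In the comparison of IKKbca with Control, Sprr2b and Sprr2d rose and no other member passed. Of the 37 members that passed the count filter, 2 rose and 0 fell, where 0.899% of all 14134 tested genes rose and 0.0566% fell. Crnn, Sprr2e and Sprr4 did not pass the filter. Among the tested Sprr2 genes, Sprr2f and Sprr2g passed it only with their IKKbca counts. The median log2 fold change was 1.22 over the 37 tested members and 0.0048 over all tested genes, with 35 members above 0 and Ivl and Tchh below. Of these 37 members 13 were Lce1 genes, so the median leans on 1 family. In the fit with a Krt4 and Krt13 covariate given below, 5 members changed sign (Crct1, Flg2, Lor, Sprr1a and Sprr3). DESeq2, run as an alternative, called 5 members higher (Sprr2b, Sprr2d, Sprr2f, Sprr2h and Sprr2i), and called 2.29% of all genes higher. All 3 IKKbca libraries lay above all 3 Control libraries for 6 members (Sprr2b, Sprr2d, Sprr2f, Sprr2h, Sprr2i and Lce1m), and 9.34% of all tested genes did so. None lay wholly below, against 8.21% of all tested genes. The unadjusted p was below 0.05 for 6 members and for 1842 of all genes.

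Sprr2d (chr3:92339140-92340873, plus strand), whose promoter is printed above, was close to silent without the active kinase. It had 0.22, 0.052 and 0.42 CPM in the Control libraries, in replicate order, and 0.045, 0.13 and 0.49 CPM in Stat3KO. In IKKbca it had 10.45, 52.0 and 94.3 CPM, and in compound mutants 5.51, 2.09 and 10.99 CPM. Every library with the kinase active was above all those where it is not, and the lowest was compound replicate 2. Against Control, Sprr2d rose in IKKbca by 7.70 ± 1.07 on the log2 scale (SE, n = 3 per group; edgeR adjusted p = 0.00696). Without Control replicate 1 the change was 7.64 and the edgeR adjusted p 0.0596.

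Sprr2b (chr3:92316620-92318085, plus strand) had 0.56, 0.42 and 1.14 CPM in Control and 3.88, 8.37 and 20.4 CPM in IKKbca. Stat3KO libraries had 0.36, 0.53 and 0.49 CPM, and compound mutant libraries 2.20, 0.58 and 1.10 CPM. The IKKbca libraries lay above the other 9, and the compound mutant libraries overlapped Control. The rise in IKKbca was 3.91 ± 0.68 (SE; edgeR adjusted p = 0.0244). It did not pass without Control replicate 1 (edgeR adjusted p = 0.139), Control replicate 2 (0.110), IKKbca replicate 2 (0.0570) or IKKbca replicate 3 (0.0759).

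The next Sprr2 genes along the chromosome had large differences that did not pass. Sprr2i had 1.34, 0.31 and 1.79 CPM in Control and 3.74, 38.9 and 60.3 CPM in IKKbca (log2 fold change 4.87 ± 1.04, edgeR adjusted p = 0.0579). It had 0.50 to 0.93 CPM in Stat3KO and 1.55, 0.29 and 3.45 CPM in compound mutants. Sprr2h differed by 4.10 ± 1.01 (edgeR adjusted p = 0.110) and Sprr2f by 3.78 ± 0.94 (edgeR adjusted p = 0.113). Sprr2g, a polymorphic pseudogene in GENCODE M21, differed by 2.62 ± 0.92 with overlapping libraries. Sprr2j-ps and Sprr2k had the highest Sprr2 levels per length in Control (means of 11.3 and 7.72 CPM per kb) and differed least, by 1.94 ± 1.02 and 1.31 ± 1.03. Sprr2j-ps is a pseudogene by its name but protein-coding in GENCODE M21. Sprr2e fell below the filter: it had 0 counts in every Control and Stat3KO library, 11, 3 and 14 counts in IKKbca, and 1, 0 and 2 in compound mutants. Set against a floor of 3 counts over the Control group, the 28 Sprr2e counts in IKKbca were 9.07-fold higher per depth. That value leaves out the counting error of the 28 counts, so it is not a strict lower limit.

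**Figure D2:**
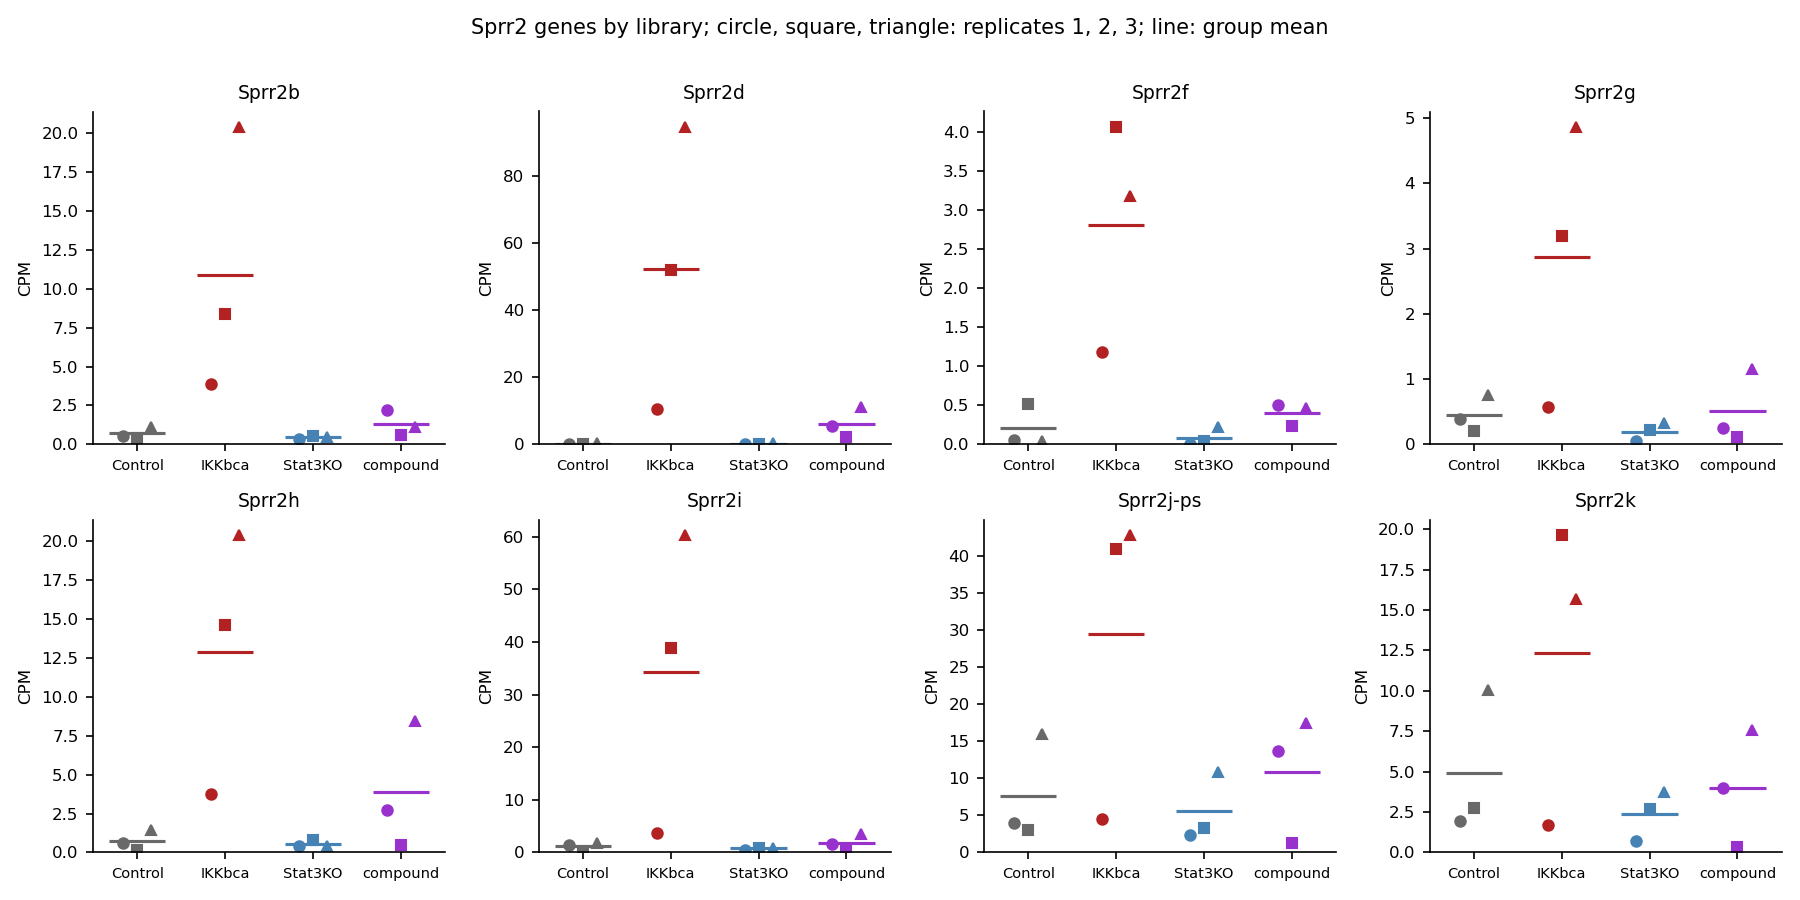
CPM of 8 Sprr2 genes in each of the 12 libraries, with symbols for replicates 1 to 3 and lines for group means. IKKbca replicate 1 (circle) is the lowest of its group in every panel, and Sprr2d in that library, at 10.45 CPM, still exceeds every Control and Stat3KO library.

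The make-up of the Sprr2 counts also differed between groups, as the same values seen as shares, with no test. Sprr2j-ps and Sprr2k held 64.8, 77.6 and 82.4% of a Control library's Sprr2 counts and 69.7, 69.9 and 83.5% in Stat3KO. In IKKbca they held 20.6, 33.3 and 22.3%, and in compound mutants 58.1, 30.9 and 49.4%, where replicate 2 fell inside the IKKbca range. Sprr2d alone held 0.699 to 2.47% in Control, 1.01 to 2.80% in Stat3KO, 28.6 to 35.9% in IKKbca and 18.1 to 38.3% in compound mutants. The Sprr2d shares with and without the active kinase did not overlap. Sprr2i held 12.3 to 22.96% in IKKbca and 5.09 to 6.80% in compound mutants, where Control ranged from 4.196 to 14.8%.

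Near copies can trade reads, so shared sequence was measured as 50-base stretches also present in transcripts of another gene. Sprr2d shared 4.27% of its stretches, mostly with Sprr2i, Sprr2b shared 14.1% with Sprr2a1, and Sprr2i shared 12.5%. Sprr2g, Sprr2h and Sprr2k shared none. Sprr2a1 and Sprr2a2, which overlap on the chromosome, shared 96.3 and 96.5%, and their 0 counts cannot be read as absence of the transcript. A sum over all Sprr2 rows does not depend on how counted reads were divided among them, but reads counted in no row are missing from it. That sum was 9.06, 7.47 and 31.5 CPM in Control, 30.3, 182 and 263 in IKKbca, 4.46, 8.61 and 17.5 in Stat3KO, and 30.5, 5.46 and 50.8 in compound mutants. Control replicate 3 and IKKbca replicate 1 overlapped, and the difference of 3.29 ± 0.96 did not pass (edgeR adjusted p = 0.190).

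Since the share of the members and that of Krt4 and Krt13 were high in the same libraries, the fit was repeated with the keratin level as a covariate, which could itself carry part of a genotype difference. With the log2 CPM of Krt4 and Krt13 as a covariate, 5 members rose in IKKbca against Control: Sprr2d by 7.24 ± 0.58, Sprr2h by 3.63 ± 0.63, Sprr2i by 3.91 ± 0.73, Sprr2b by 3.56 ± 0.48 and Sprr2j-ps by 1.12 ± 0.25 (edgeR adjusted p from 4.1e-04 to 0.0414). Calls over all genes were also more frequent in that fit, at 2.19% higher. The Sprr2 sum then rose by 2.59 ± 0.30 (edgeR adjusted p = 0.0024). Sprr2k differed by 0.41 ± 0.38, Sprr1b by 0.74 ± 0.27, Sprr3 by -0.16 ± 0.20 and Sprr1a by -0.21 ± 0.22, and none of these passed. Along the chromosome, the tested genes from Sprr2b to Sprr2i thus had values of 1.94 to 7.24 and the next 5, from Sprr2j-ps to Sprr1a, values of -0.21 to 1.12. The Sprr2 genes span 117 kb.

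**Figure D3:**
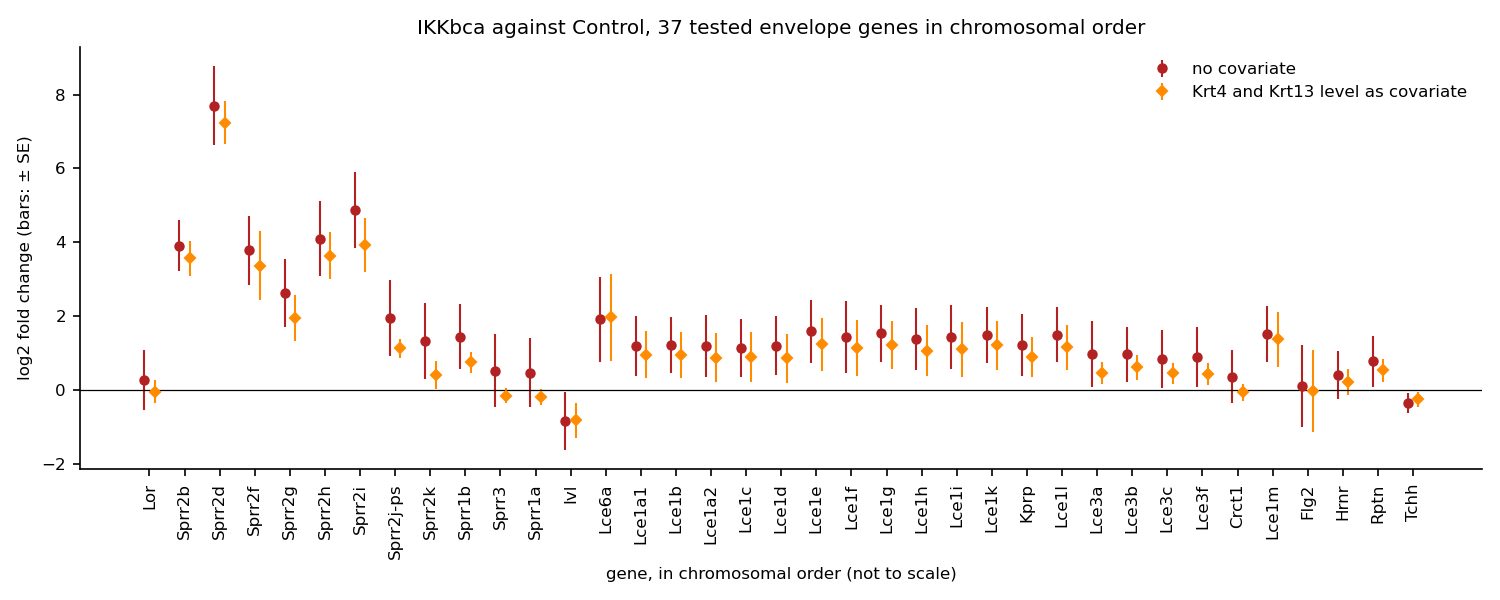
Log2 fold change of IKKbca against Control, with SE bars, for the 37 tested members in chromosomal order, without a covariate (circles) and with the Krt4 and Krt13 level as one (diamonds). Values peak at Sprr2d (7.70 and 7.24), and Lor, Sprr3, Sprr1a and Crct1 lie near 0 with the covariate.

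Among the other Sprr genes, Sprr3 (chr3:92456502-92458720, minus strand) had 1672, 1374 and 7670 CPM in Control and 1056, 7824 and 6490 CPM in IKKbca. Stat3KO libraries had 1270, 1309 and 4156 CPM, and compound mutant libraries 4057, 364 and 4591 CPM. Groups overlapped throughout, and the difference for IKKbca against Control was 0.52 ± 0.98 (edgeR adjusted p = 0.862). Sprr1a (chr3:92483952-92485895, minus strand), an envelope precursor also induced in wounded tissue, had 444, 404 and 1750.1 CPM in Control and 286, 1851 and 1449.7 CPM in IKKbca. It had 272, 242 and 1011 CPM in Stat3KO and 605, 84.3 and 929 CPM in compound mutants. Its groups overlapped too, with a difference of 0.47 ± 0.93 for IKKbca (edgeR adjusted p = 0.872).

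Sprr1b (chr3:92436809-92438789, minus strand), the paralogue of Sprr1a, had 64.6, 49.4 and 206 CPM in Control and 67.6, 408 and 392 CPM in IKKbca. It had 37.4, 46.7 and 85.5 CPM in Stat3KO and 158, 27.0 and 349 CPM in compound mutants. Replicate 1 of IKKbca lay among the Control libraries, and the difference of 1.44 ± 0.88 did not pass (edgeR adjusted p = 0.522). Sprr4 had 0 to 2 counts per library.

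Ratios of 2 transcripts counted in the same library do not depend on its scaling; those given here were chosen after the values had been seen and carry no test. Per 1000 Sprr3 counts there were 5.42, 5.44 and 4.11 Sprr2 counts in Control, 28.7, 23.2 and 40.5 in IKKbca, 3.51, 6.58 and 4.21 in Stat3KO, and 7.52, 15.0 and 11.1 in compound mutants. IKKbca libraries were highest and compound mutant libraries next, with no overlap between these groups or with the 6 libraries lacking the active kinase. Sprr1b per 100 Sprr1a counts stood at 14.5, 12.2 and 11.8 in Control, 23.6, 22.0 and 27.0 in IKKbca, 13.7, 19.3 and 8.46 in Stat3KO, and 26.1, 32.0 and 37.6 in compound mutants. All 6 libraries with the active kinase lay above the 6 without it, although neither gene passed the test of levels.

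**Figure D4:**
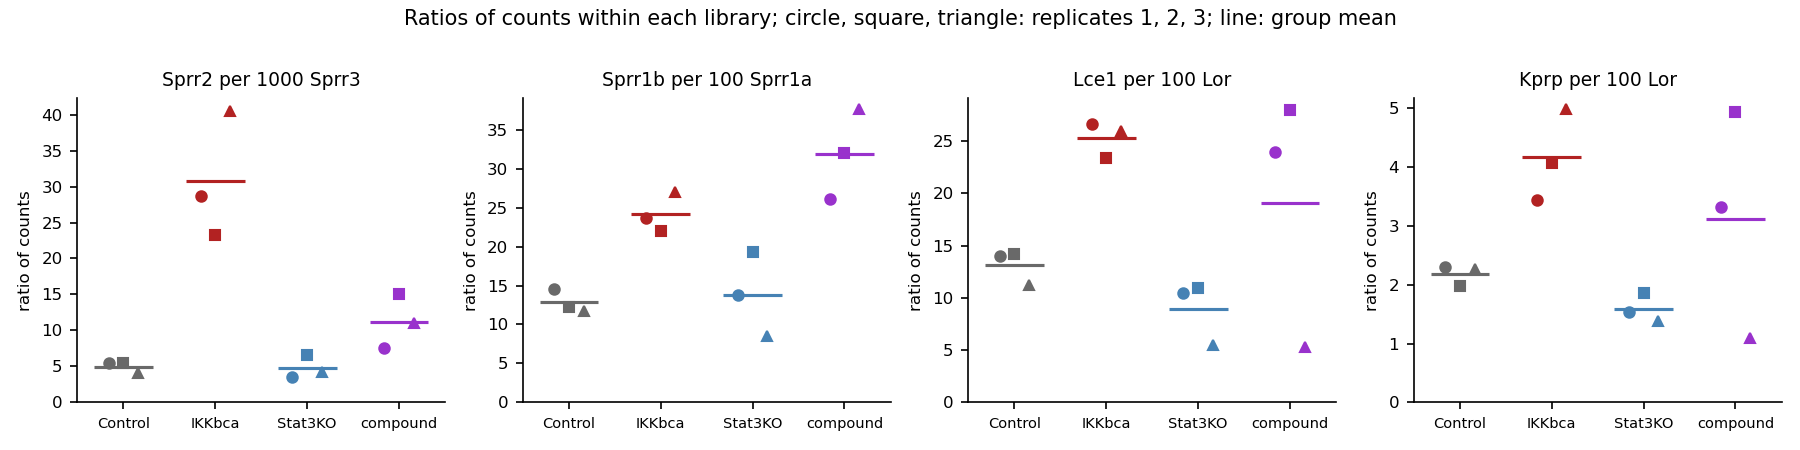
Ratios of counts within each library, with symbols for replicates 1 to 3 and lines for group means. Sprr2 per Sprr3 is highest in the 3 IKKbca libraries (23.2 to 40.5), and Sprr1b per Sprr1a is higher in all 6 libraries with the active kinase (22.0 to 37.6) than in the 6 without (8.46 to 19.3).

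Of the Lce genes none passed in any comparison. The 13 Lce1 genes differed by 1.14 to 1.58 in IKKbca against Control, all above 0 (smallest edgeR adjusted p = 0.428), with Lce1e (1.58 ± 0.85) and Lce1g (1.53 ± 0.77) the largest. In Stat3KO against Control they differed by -1.33 to -0.46, all below 0. Summed, Lce1 had 317, 331 and 1079.9 CPM in Control, 635, 1903 and 1693 in IKKbca, 274, 260 and 311 in Stat3KO, and 1930, 195 and 250 in compound mutants. Stat3KO was the tightest group and the compound mutant the widest, with replicate 1 at 1930 CPM and the other 2 below every Stat3KO and Control library. The sum differed by 1.29 ± 0.81 in IKKbca (edgeR adjusted p = 0.537) and by -1.03 ± 0.81 in Stat3KO (edgeR adjusted p = 0.827). Lce1 genes shared from 0 (Lce1m) to 27.1% (Lce1i) of their 50-base stretches with another gene, so values of single Lce1 genes are less certain than the sum.

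Against Lor, the Lce1 sum showed less spread than its level in Control, IKKbca and compound mutants, and more in Stat3KO. Per 100 Lor counts there were 14.04, 14.2 and 11.2 Lce1 counts in Control and 26.7, 23.4 and 25.9 in IKKbca. In Stat3KO there were 10.47, 10.96 and 5.45, and in compound mutants 23.9, 28.0 and 5.26. IKKbca libraries lay above Control and Stat3KO without overlap, and in compound mutants replicate 3 stood apart from the other 2. Kprp, a keratinocyte proline-rich protein encoded between Lce1k and Lce1l, went the same way. It had 2.29, 1.99 and 2.26 counts per 100 Lor in Control, 3.44, 4.07 and 4.98 in IKKbca, 1.54, 1.86 and 1.38 in Stat3KO, and 3.32, 4.94 and 1.09 in compound mutants. As a level, Kprp differed by 1.22 ± 0.84 in IKKbca (edgeR adjusted p = 0.575).

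Lce3 genes, which in human epidermis are known for induction in wounds and psoriasis, were the more abundant Lce group here. Lce3b (chr3:92932979-92934097, plus strand), the highest of all Lce genes, had 224, 142 and 663 CPM in Control, 280, 882 and 833 in IKKbca, 172, 148 and 423 in Stat3KO, and 682, 98.7 and 355 in compound mutants. The groups overlapped, and it differed by 0.96 ± 0.75 in IKKbca (edgeR adjusted p = 0.631). Lce3a differed by 0.97 ± 0.90, Lce3f by 0.88 and Lce3c by 0.82, and none passed. These 4 genes shared 12.1 to 48.0% of their stretches with another gene, and their sum differed by 0.91 ± 0.81 (edgeR adjusted p = 0.677). Lce6a had at most 0.68 CPM.

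**Figure D5:**
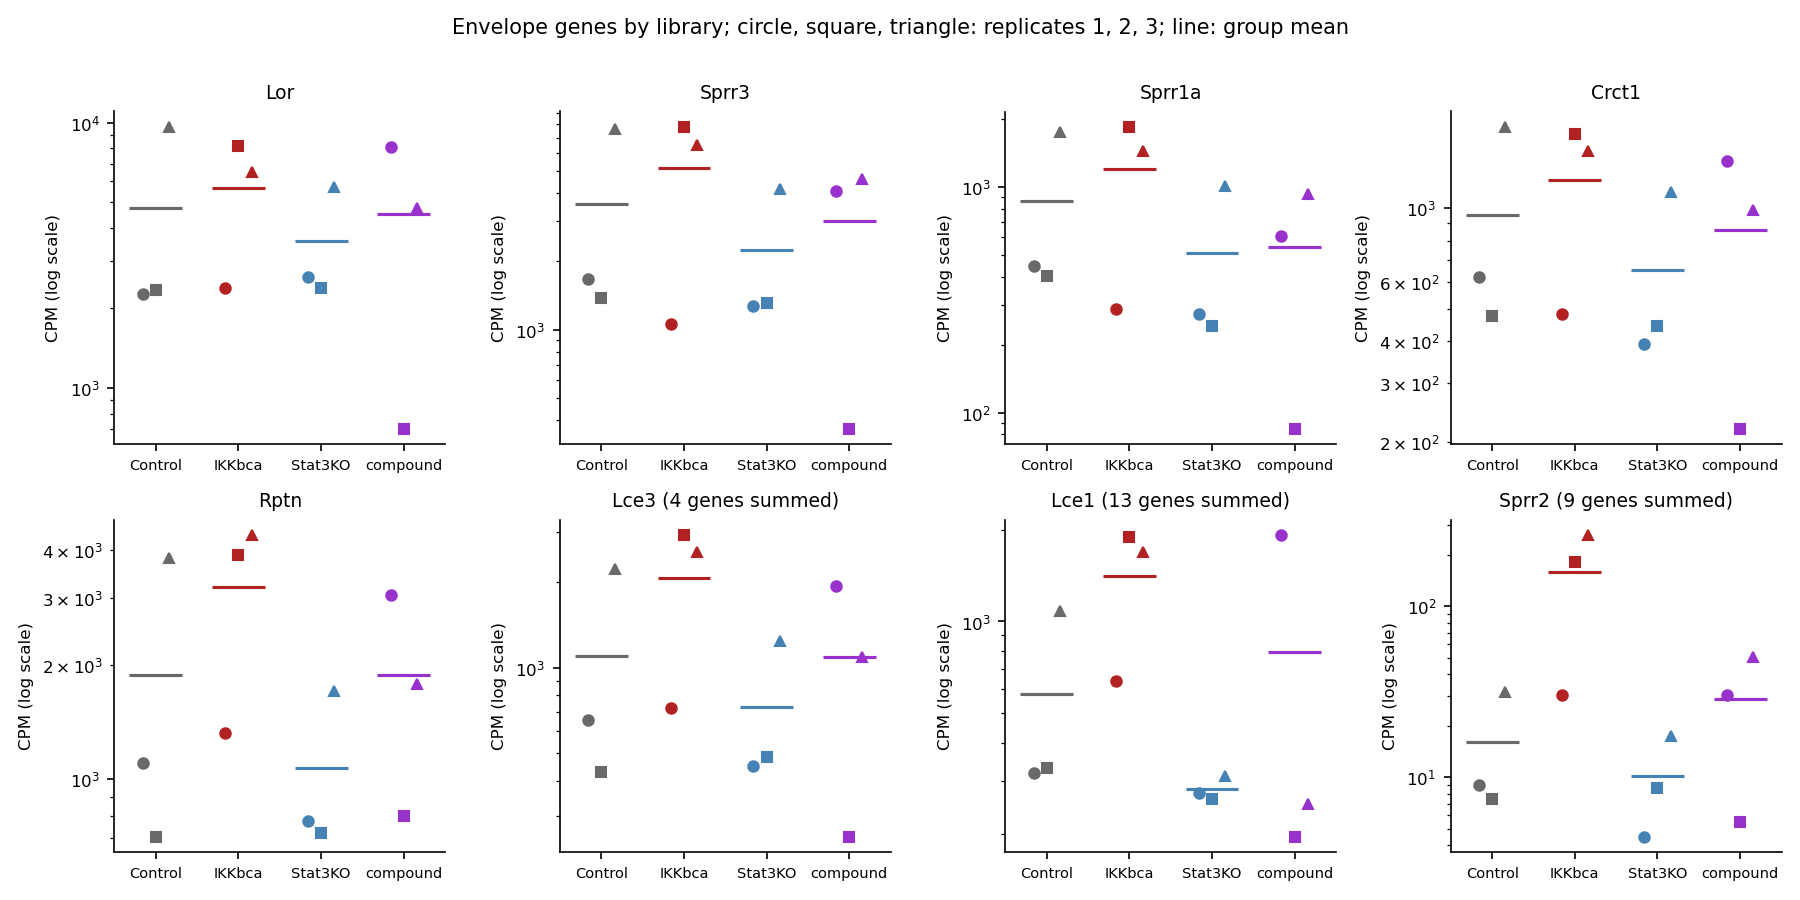
CPM by library, on log axes, for 5 single members and 3 summed families, with symbols for replicates 1 to 3 and lines for group means. Compound replicate 2 is the lowest of all libraries for Lor, Sprr3, Sprr1a, Crct1, Lce3 and Lce1, and the Sprr2 sum in IKKbca reaches 182 and 263 CPM against at most 50.8 in the other groups.

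Of the fused S100 genes none passed. Rptn (chr3:93393699-93399442, plus strand), which encodes repetin, was the highest, with 1106, 703 and 3826 CPM in Control, 1319, 3897 and 4401 in IKKbca, 779, 722 and 1711 in Stat3KO, and 3051, 801 and 1779 in compound mutants. The groups overlapped, and the difference in IKKbca was 0.77 ± 0.69 (edgeR adjusted p = 0.681). Hrnr (hornerin) had 39.6 to 190 CPM and differed by 0.40 ± 0.64. Rptn, Hrnr and Tchh overlap the model Gm37245 on the chromosome and Rptn also Gm37857, and since the strand setting of the counting is not given, reads from these models cannot be told apart. Tchh had 6.04 to 11.7 CPM and differed by -0.36 ± 0.28. Flg2, a filaggrin relative, had at most 1.95 CPM. Crnn (chr3:93144787-93149819, plus strand), which encodes cornulin, had 0, 14 and 1 counts in Control, 23, 5 and 12 in IKKbca, 4, 0 and 5 in Stat3KO, and 4, 1 and 0 in compound mutants. Crnn did not pass the count filter, and in the fit with no filter it differed by 1.27 ± 1.23 in IKKbca and was not called in any comparison (edgeR adjusted p = 0.715 for IKKbca).

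Lor (chr3:92080271-92083142, minus strand) had 2259, 2337 and 9648 CPM in Control and 2383, 8127 and 6531 in IKKbca. It had 2616, 2375 and 5717 CPM in Stat3KO and 8072, 698 and 4760 in compound mutants. The groups overlapped, with a difference of 0.26 ± 0.82 for IKKbca (edgeR adjusted p = 0.925). Ivl (chr3:92570902-92573735, minus strand) had 2.91, 3.19 and 12.6 CPM in Control, 2.98, 4.50 and 3.01 in IKKbca, 3.47, 3.73 and 9.44 in Stat3KO, and 13.1, 1.16 and 7.69 in compound mutants. Its 4.50 and 3.01 CPM in IKKbca replicates 2 and 3 compare with 7.69 to 13.1 CPM in the other 4 libraries rich in Krt4 and Krt13, and its difference in IKKbca of -0.85 ± 0.78 did not pass (edgeR adjusted p = 0.687). Crct1 differed by 0.35 ± 0.72.

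Stat3KO against Control passed the test for none of the 37 members, and 0.0% of all 14134 genes were called by edgeR in either direction. The unadjusted p was below 0.05 for 0 members and 1060 genes, and DESeq2 called 0 members, with 43 genes higher and 63 lower. The members' median log2 fold change was -0.81, against -0.016 over all genes, with 36 of 37 below 0. Sprr2 genes differed by -1.24 to -0.23. All 3 Stat3KO libraries lay below Control for Lce1c, Lce1d, Lce1e, Lce1i and Lce1k, 5 near copies, where 6.1% of all genes did so, and 0 members lay wholly above, against 6.96%. Control replicate 3, the deepest library, was the highest Control value of each of these 5. Lying wholly below Control is set by the lowest Control library and not by this one. In the fit without Control replicate 3, 0 of 39 tested members were called, with 0 genes higher and 1 lower. Under the alternatives 30 of 713 member values of this comparison changed sign, over 19 members. Of these 30 changes, 25 came from leaving out 1 library.

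In compound mutants against Control no member passed, where 0.566% of all genes rose and 0.318% fell. Sprr2d came nearest, with 4.62 ± 1.02 (edgeR adjusted p = 0.0700), and was the only member whose libraries all lay above Control (7.2% of all genes), with 0 wholly below (7.85%). It passed with the Krt4 and Krt13 covariate (4.54 ± 0.58, edgeR adjusted p = 0.0045) and by DESeq2 (4.71 ± 1.07, adjusted p = 9.9e-04), fits in which 1.77% and 1.67% of all genes were higher. Sprr2h differed by 2.36 ± 0.97, and Sprr2b by 0.85 ± 0.66. With the covariate Sprr1a fell (-1.19 ± 0.22, edgeR adjusted p = 0.0185), as did 1.37% of all genes, where without it the value was -0.68 ± 0.94 and did not pass. Against Stat3KO, Sprr2d differed by 4.85 ± 1.05 (edgeR adjusted p = 0.102), and 0 members passed, where 0.41% of all genes rose and 0.0495% fell. With the covariate Sprr2d passed there too (4.32 ± 0.57, edgeR adjusted p = 0.0071; 1.03% of all genes higher), as it did by DESeq2 (adjusted p = 0.0012; 1.37% of all genes). With the replicate number as a block it passed at 4.94 (edgeR adjusted p = 0.0478), with 0.403% of all genes higher. Deviations from the group means in same-numbered libraries of these 2 groups had correlations of 0.12, 0.26 and 0.14. Sprr2b, Sprr2d and Sprr2f, 3 of 37 tested members, lay wholly above Stat3KO, near the share of all genes (6.06%). Tchh lay wholly below (6.87%).

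Whether Stat3 matters to these genes when the kinase is active was read from the compound mutant against IKKbca. Both groups carry Cre. No member passed, and 0.0% of all genes were called in either direction. The unadjusted p was below 0.05 for 5 members and 1396 genes. All 8 tested Sprr2 genes were below 0, led by Sprr2i (-4.27 ± 1.0), Sprr2d (-3.07 ± 0.80) and Sprr2b (-3.06 ± 0.65), with edgeR adjusted p of 0.272, 0.336 and 0.251. These near copies in the same libraries are not independent observations. Sprr2f and Sprr2g passed the count filter only with their IKKbca counts, which favours values below 0 here. Sprr2b, Sprr2f and Sprr2i lay wholly below IKKbca. These are 3 of 37 tested members, near the share of all genes that did so (7.54%). Wholly above lay 0 members (7.12%). DESeq2 called Sprr2b (adjusted p = 0.0011) and Sprr2i (0.0097) lower, with 0.552% of all genes. With the Krt4 and Krt13 covariate Sprr2b (-2.84 ± 0.45) and Sprr2d (-2.69 ± 0.41) were lower, each with an edgeR adjusted p of 0.0405, as was the Sprr2 sum (-2.19 ± 0.29, edgeR adjusted p = 0.0387). In that fit 0.134% of all genes were lower. Lce1 genes differed by -1.06 to -0.37 and Lce3 genes by -1.22 to -0.69.

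The interaction, the change with the active kinase in epithelium without Stat3 minus that with Stat3, passed for 0 members and for 0.0% of all genes, with an unadjusted p below 0.05 for 2 members (Sprr2b, -2.41 ± 0.95, and Sprr2i, -3.66 ± 1.41) and 658 genes, and DESeq2 called 0 members. All 8 tested Sprr2 genes were below 0, with a median of -1.42, against -0.0035 over all genes. They are near copies and not independent observations, and the filter limit on Sprr2f and Sprr2g holds here too. Lce1 values lay between 0.032 and 0.30, most of them below 0 with the covariate, Rptn at 0.04 ± 0.98 and Lor at 0.08 ± 1.16. The SE of the interaction ranged from 0.39 for Tchh to 1.62 for Sprr2d. The interaction includes Control, the only group without Cre, so Cre cannot be told apart in it either.

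Other genes of the envelope pathway were read from lists chosen with earlier results known. Of 18 tested scaffold and cross-linking genes (transglutaminases, envoplakin, periplakin and others) 0 were called in IKKbca, with a median of 0.20. Of 26 genes of desquamation and filaggrin processing only Spink12, a protease inhibitor, rose, from 0.411 ± 0.286 (SD) to 40.2 ± 25.1 CPM (6.59 ± 1.16, edgeR adjusted p = 0.0253). Of 22 lipid barrier genes 0 were called. Of 36 regulators only Pou3f1, a POU factor, rose, from 2.27 ± 1.29 to 9.33 ± 2.05 CPM (2.02 ± 0.40, edgeR adjusted p = 0.0428). Any link between Pou3f1 and the octamers of the Sprr2 promoters was not tested. Of 12 tested S100 genes in the same chromosomal block, S100a8 (6.78 ± 0.63) and S100a9 (3.61 ± 0.66), the calprotectin subunits, rose. S100a8 also passed in compound mutants against Control (4.22 ± 0.58, edgeR adjusted p = 0.0071) and against Stat3KO (3.46 ± 0.55, edgeR adjusted p = 0.0230). Of 7 tested other genes inside the block 0 were called. None of these lists had a gene that fell in IKKbca, and none had a gene called in Stat3KO. Over all tested genes 0.899% rose and 0.0566% fell in IKKbca, and 0.0% were called in Stat3KO. Such absences are therefore not particular to these lists.

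Some keratin and dendritic cell genes also rose in IKKbca, while other marker lists overlapped Control or were lower. Of 8 tested keratins of keratinising or wounded epithelium 4 rose in IKKbca: Krt16 (4.84 ± 0.65), Krt6b (4.47 ± 0.90), Krt10 (3.10 ± 0.47) and Krt84 (2.99 ± 0.60), with edgeR adjusted p from 0.0064 to 0.0449. Their list summed to 501 to 1051 CPM in Control, 2163 to 4118 in IKKbca, 314 to 608 in Stat3KO and 891 to 2180 in compound mutants. Krt10 (2.996 ± 0.463, edgeR adjusted p = 0.0134) and Krt16 (3.36 ± 0.61, edgeR adjusted p = 0.0298) also passed in compound mutants against Control. Against Stat3KO both passed too (3.42 ± 0.47, edgeR adjusted p = 0.0086, and 4.51 ± 0.66, edgeR adjusted p = 0.0125). Krt6b and Krt84 passed in neither. Krt10 had means of 349 CPM in IKKbca and 323 in compound mutants, and Krt16 of 203 and 72.7. Of 5 dendritic cell genes Itgax and Cd207 rose, and that list summed to 165 to 258 CPM in Control and 390 to 484 in IKKbca. Itgax and Cd207 had means of only 2.23 and 3.44 CPM in Control and 10.8 and 19.7 in IKKbca. Most of the list sum thus came from Cd74, Epcam and Flt3, which were not called. Neutrophil genes, of which Elane was at 0, summed to 5.80 to 21.2 CPM in Control and 4.30 to 29.5 in IKKbca. Hair follicle genes, with Krtap3-1 at 0, summed to at most 14.8 CPM in any library and were lowest in IKKbca (4.60 to 5.44). The other marker lists had no gene called in any comparison, but some differed in summed level. Nerve and Schwann cell genes summed to 154 to 344 CPM in Control, 141 to 152 in IKKbca, 155 to 173 in Stat3KO and 116 to 125 in compound mutants, so that IKKbca and compound mutants lay below Control. Smooth muscle genes summed to 1976 to 2536 CPM in Control, 1075 to 4177 in IKKbca, 915 to 1640 in Stat3KO and 1197 to 1857 in compound mutants, the last 2 below Control. Skeletal muscle genes ranged from 23.4 to 323 CPM in Control and from 69.2 to 987 in IKKbca, where 11 of 11 had a log2 fold change above 0 (median 1.95), and they reached 1819 CPM in Stat3KO and 280 in compound mutants. The part of keratinising epithelium, dendritic cells, muscle and nerve in the Sprr2 values was not tested. Without the 2 libraries rich in gastric genes, Sprr2b, Sprr2d and Sprr2i rose in IKKbca, with 0.526% of all genes.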

How the data were processed

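Gene read counts were analysed from 12 libraries in 4 genotype groups. Per the submitters' processing notes, which name cutadapt 1.13, STAR, HTSeq 0.6.1p1, DESeq2 and mm10, the deposited values are whole-number counts per gene with no scaling. Strand is not given in the sources used here.

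The members and all gene lists were chosen with earlier results of these data known. One edgeR 4.0.16 quasi-likelihood model (limma 3.58.1, R 4.3.3; TMM factors, robust estimation, filterByExpr by group) was fitted to all 14134 genes kept, and p-values were Benjamini-Hochberg adjusted over all of them. A gene passed below 0.05. Of the 6 comparisons 5 set a group against another and 1 was the interaction. Errors of log2 fold changes are standard errors, and those of CPM are standard deviations. The script was tested on simulated counts. Total counts, 14.8 to 30.2 M, set the precision, and the Sprr2e floor covers counting error in Control only. Values in every library were given for members called in any comparison, for Lor, Ivl, Crnn, Sprr1a, Sprr1b and Sprr3, and for the member with the highest mean CPM among Sprr2, Lce and fused S100 genes. Of the rest, the 2 per family with the largest difference in IKKbca were named, and of each list called genes only, up to 6. Other members, such as all Sprr2 genes, were named after their values had been seen.

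Alternatives were DESeq2 1.42.0 size factors, its Wald test, no filter, a replicate block, leaving out each library or the 2 gastric-rich ones, the Krt4 and Krt13 covariate, no robust estimation, and near copies summed. Deviations from the group means in same-numbered libraries of Stat3KO and compound mutants had correlations over genes of 0.12, 0.26 and 0.14. Those of Control and compound mutants were 0.089, 0.45 and 0.42, and Stat3KO replicate 3 had 0.15 with compound replicate 1. Any pairing was read from the data and not the labels. All 66 pairs of libraries differed by a chi-square of at least 26.1 per degree of freedom. Exon lengths and shared 50-base stretches came from GENCODE M21, promoters from RefSeq (GRCm38.p6).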

Additional observations from a re-analysis of the deposited data

How the results depend on the processing

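For IKKbca against Control, 5 members were called by the DESeq2 Wald test (Sprr2b, Sprr2d, Sprr2f, Sprr2h and Sprr2i), 5 with the Krt4 and Krt13 covariate and 0 with near copies summed, where 14 features were left. Over all genes, 323 were higher and 119 lower by DESeq2 and 310 and 93 with the covariate, against 127 and 8 in the reported fit. For the compound mutant against Control, 1 member (Sprr2d) was called by DESeq2, with the replicate block and without the 2 gastric-rich libraries, and 2 with the covariate (Sprr2d and Sprr1a), where over all genes 236 were higher and 240 lower by DESeq2 and 250 and 194 with the covariate, against 80 and 45. Against IKKbca, 2 were called by DESeq2 (Sprr2b and Sprr2i) and 2 with the covariate (Sprr2b and Sprr2d), with 53 genes higher and 78 lower by DESeq2 and 11 and 19 with the covariate, against 0. Against Stat3KO, 1 (Sprr2d) was called by DESeq2, with the block and with the covariate, with 194, 57 and 145 of all genes higher, against 58. The Sprr2 sum passed with the covariate (2.59). The cause of these moves was not tested.

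No called value changed sign. Of 4278 member values under the alternatives, over all 6 comparisons, 316 changed sign, 158 of them in the interaction and 13 in IKKbca against Control, none called in either fit. In IKKbca against Control, the covariate turned Sprr3 to -0.16, Sprr1a to -0.21, Crct1 to -0.075, Lor to -0.0505 and Flg2 to -0.025. Leaving out each library gave -0.22 to 0.85 for Flg2, -0.033 to 1.49 for Sprr1a, -1.19 to 0.19 for Ivl and -0.13 to 1.30 for Lor. In the compound mutant against Control the covariate changed the sign of 6 members (Ivl, Lce3b, Lce3c, Rptn, Sprr2g and Sprr2j-ps), and against Stat3KO that of 8.

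Leaving out each library in turn gave 0 to 3 members for IKKbca against Control, 0 to 1 for the compound mutant against Control and against Stat3KO, 0 to 0 for the other comparisons, and 2.71 to 4.25 for the Sprr2 sum in IKKbca. The count was 0 without Control replicate 1.

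Whether the replicate numbers pair libraries was not settled by the data. Over all groups 9 of 18 same-number pairs had a correlation of deviations above 0.1, over a range of -0.41 to 0.45. Same-number correlations were all above 0 for Control and compound mutants (0.089, 0.45 and 0.42) and for Control and Stat3KO (0.28, 0.073 and 0.088). They were also all above 0 for Stat3KO and compound mutants. With the replicate block, IKKbca against Control still gave 2 calls (Sprr2b and Sprr2d), and Sprr2d passed in compound mutants against Control (4.81, edgeR adjusted p = 0.0374) and against Stat3KO (4.94, edgeR adjusted p = 0.0478).

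Depth limits Sprr2e, Sprr4, Crnn, Lce6a and Flg2, which had few counts. It also limits Sprr2d outside the libraries with the active kinase, where it had 4, 1 and 11 counts in Control and 1, 3 and 9 in Stat3KO.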

Other observations

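Lce1 and Lce3, both late envelope groups, did not keep a fixed proportion. Per 100 Lce3 counts there were 48.4, 77.3 and 48.7 Lce1 counts in Control, 88.0, 64.7 and 66.4 in IKKbca, 60.8, 53.5 and 25.1 in Stat3KO, and 99.8, 77.1 and 22.9 in compound mutants. The 2 lowest were Stat3KO replicate 3 and compound replicate 3, which were also lowest in Lce1 per 100 Lor (5.45 and 5.26) and among the lowest in Kprp per 100 Lor (1.38 and 1.09). In the same libraries Lce3 per 100 Lor was 21.7 and 22.98, against 18.3 to 29.0 in Control, and Crct1 per 100 Lor was 19.5 and 20.7, against 18.2 to 27.6. Sprr1b per 100 Sprr1a was the lowest of the 12 libraries in Stat3KO replicate 3 (8.46) and the highest in compound replicate 3 (37.6), and Sprr3 per 100 Lor was 72.7 and 96.4, above the other 2 libraries of each group.

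Compound replicate 2, the shallowest library, had 115 Rptn counts per 100 Lor, where the other 11 libraries had 29.8 to 67.4, and 7.55 Hrnr counts per 100 Lor, where the others had 1.69 to 2.67. Its Lor, at 698 CPM, was the lowest of all. These ratios were chosen after their values had been seen.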
